A study of Mus musculus with 3 samples.

Results

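The cytosolic ribosomal protein genes of mouse T-helper 1 cells were examined in 3 RNA-seq libraries. Members were the protein-coding genes of the deposited tables whose symbol begins with Rpl or Rps followed by a digit or by p, without the Rps6k kinases and without pseudogenes. The rule found 85 genes among 50600, of which 21764 were protein-coding. It gave 52 genes of the large subunit, 32 of the small subunit and Rps19bp1, which matches by symbol but encodes a protein that binds Rps19 and was kept out of the comparison of subunits. The 3 libraries formed 1 group of primary cells of strain C57BL/6NJ labelled as T-helper 1, with no treatment, genotype or second condition in the labels. Age and sex are not recorded there. The replicates have separate biosample records and share 1 donor record. The labels do not say whether they came from separate animals or cultures, so p-values concern only these samples. They cannot be read as a measure of the spread between the samples. That spread may be technical in part. Genes of the sex chromosomes differed between the libraries, as given below, and the source of the spread was not tested. The labels call the molecule total RNA, the library protocol they link to is named for polyadenylated RNA, and a 16hr tag in the file headers has no counterpart in the labels.

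The ribosome is built from a large and a small subunit, each a scaffold of ribosomal RNA clothed in single copies of most of its proteins. The small subunit reads the mRNA and the large subunit joins amino acids and passes the chain through its exit tunnel. Vertebrate ribosomal protein mRNAs begin with a run of pyrimidines, the terminal oligopyrimidine tract, through which mTOR signalling and the protein LARP1 control their translation. When T cells are activated they enlarge and make new ribosomes before they divide, so these genes are among the main products of a dividing T cell.

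The deposited gene counts summed to 4764598, 2568928 and 2815439 in replicates 1, 2 and 3, of which the members held 263190, 128915 and 102275. Levels are given in TPM, a measure of transcript abundance scaled to gene length and library total, computed from each count and the deposited exon length. All levels rest on the strand setting of the counting, whose match to the library kit is not given in the sources used here. At 1 TPM a gene had 2.25, 1.28 and 1.59 counts for each kilobase of exon in replicates 1, 2 and 3. The libraries did not look alike in genes of the sex chromosomes. Counts of Xist, the RNA that silences an X chromosome, were 807, 1110 and 4 for replicates 1, 2 and 3. Those of the Y-linked gene Ddx3y were 161, 0 and 81. Replicate 2 thus had Xist without Ddx3y, replicate 3 had Ddx3y with few Xist counts and replicate 1 had both, which the shared donor record does not describe. Of the fixed cell type markers, 7 of 7 T cell genes reached 1 TPM in every library. Among Th1 markers 1 of 4 did so, Il12rb2 with 14.4, 15.5 and 15.1 TPM. Exons of Il12rb2 overlap exons of the other strand. Tbx21 had 0.357, 3.15 and 0.506 TPM, and Ifng and Cxcr3 stayed under 1 TPM in every library. The markers of B cells (0 of 3), NK cells (0 of 2) and erythroid cells (0 of 2) did not reach that level throughout. Of the CD8 markers, Cd8a had 0 counts in each library and Cd8b1 was detected, with 29.0, 7.93 and 15.3 TPM. Of the 3 macrophage markers Csf1r alone was detected, a gene whose exons overlap exons of the other strand.

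Nearly every ribosomal protein gene was expressed. Detection, set at 1 TPM or more in each library, was reached by 81 of 85 members (95.3%), against 39.8% of all protein-coding genes. Mean levels of 1000 TPM or more were found for 19 members, levels of 100 to 1000 TPM for 59 and levels under 100 TPM for 7. Among detected members the 10th and 90th percentiles of mean level were 151 and 1699 TPM, a ratio of 11.3. The SD of log2(TPM + 1) among detected members was 1.39, 1.48 and 1.48 in replicates 1, 2 and 3, whereas the median SD of 1 member between libraries was 0.49. The differences between genes were thus wider than those between libraries, and 9 genes stood among the 10 highest in every library. Neighbours in the order of levels were not separated in this way, since only 15 of 84 neighbouring pairs kept their order in all 3 libraries.

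**Figure D1:**
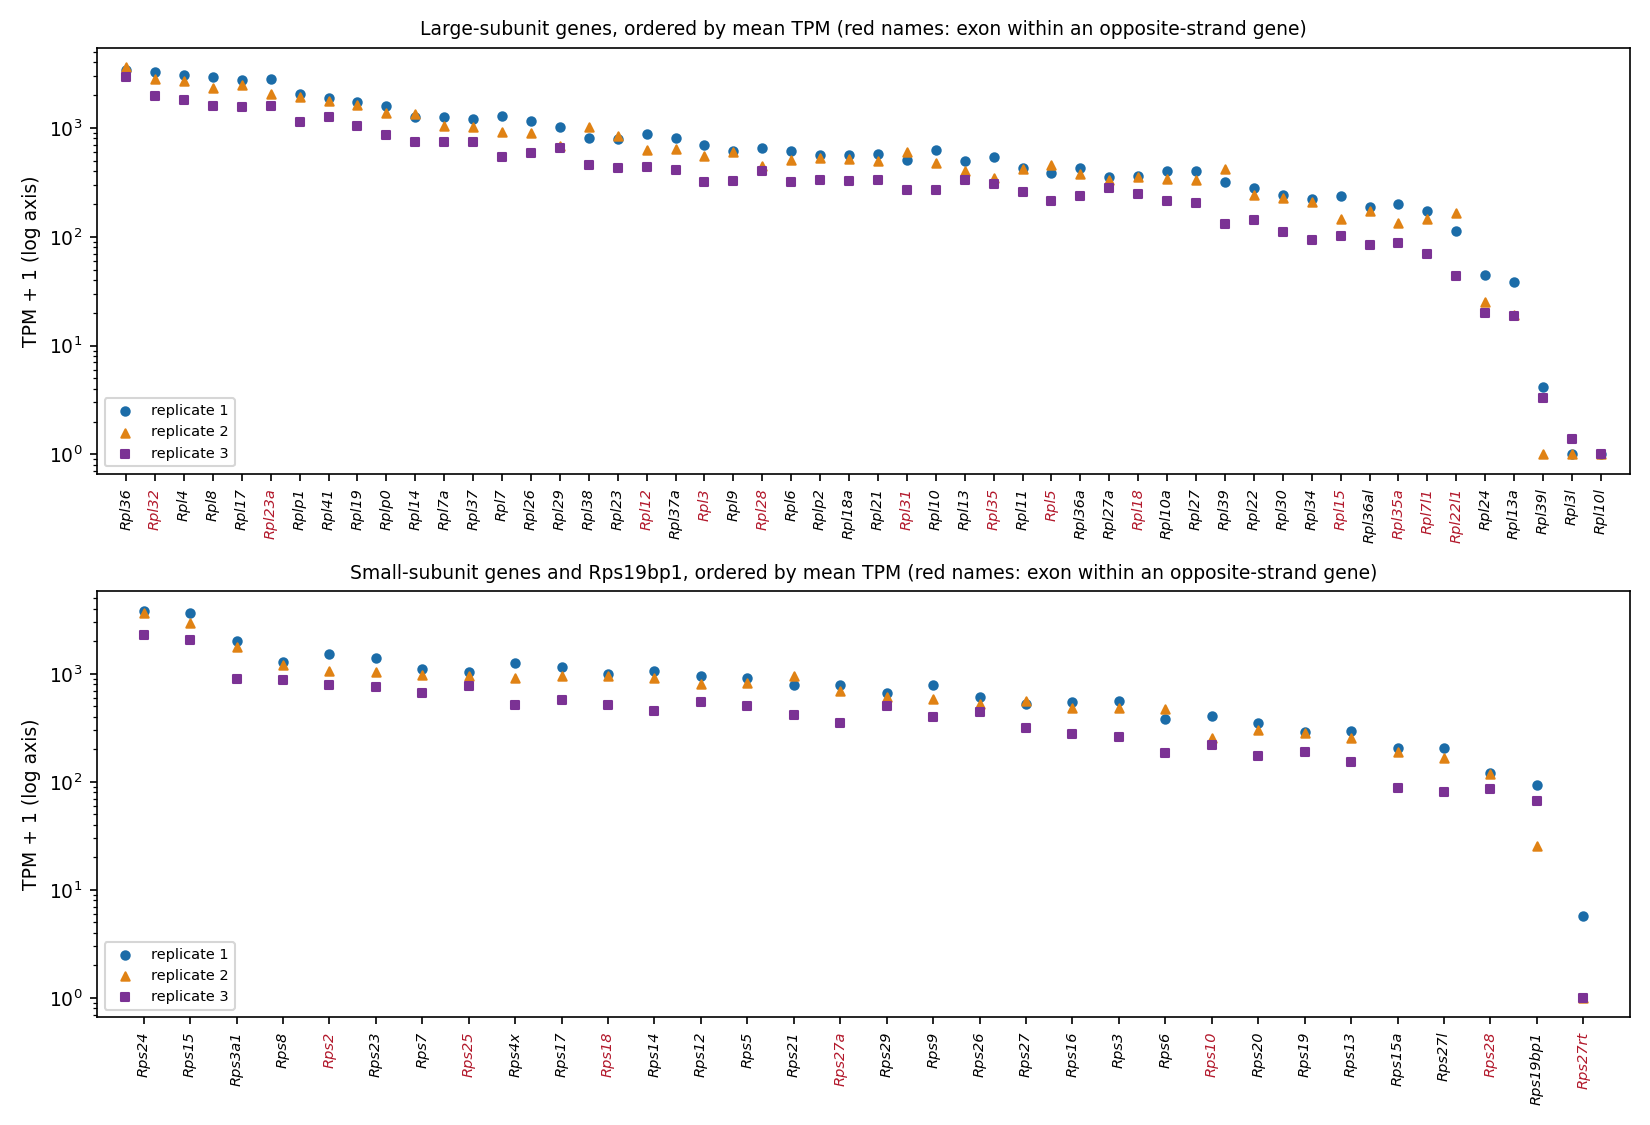
Level of 84 members as TPM + 1 on a log axis, with large subunit genes and small subunit genes in separate panels ordered by mean level and 1 point per library; red names mark genes with an exon inside a gene of the other strand. Replicate 3 is the lowest point for 79 of the 84 members shown, and the 4 members that were not detected stand at the low end.

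The highest large subunit gene was Rpl36 (chr17:56613395-56614243, mm10), a small surface protein of the subunit, with 3426, 3621 and 2933 TPM in replicates 1, 2 and 3. Its 3 values lay closer together than those of any other detected member, with an SD of 0.16 on the log2(TPM + 1) scale. Rpl32 (chr6:115805505-115808747) followed with 3246, 2787 and 1978 TPM. Rpl4, which reaches into the peptide exit tunnel, had 3072, 2717 and 1789 TPM. Rpl8, a neighbour of the peptidyl transferase centre, had 2959, 2310 and 1590 TPM. In Rpl32, Rpl4 and Rpl8 replicate 3 was lowest and replicate 1 highest, while in Rpl36 replicate 2 was highest.

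Genes of the exit tunnel and its rim ranged from 288 to 2526 TPM in mean level. The 8 genes listed (Rpl4, Rpl17, Rpl19, Rpl23a, Rpl26, Rpl31, Rpl35 and Rpl39) were all detected and had a median of 1171 TPM, against 498 TPM over all 85 members. At the low end stood Rpl39, which encodes a very short protein of the tunnel wall, with 317, 417 and 131 TPM. The 3 genes near the peptidyl transferase centre (Rpl3, Rpl8 and Rpl10) had a median of 522 TPM. Rpl3 had 700, 546 and 319 TPM and Rpl10, which completes the subunit late in its maturation, had 631, 475 and 266 TPM. Both genes were lowest in replicate 3.

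The stalk recruits elongation factors to the ribosome, and its acidic proteins Rplp1 and Rplp2 bind as dimers to Rplp0. Rplp1 (chr9:61913284-61914542) had 2051, 1917 and 1128 TPM, while Rplp2 (chr7:141447370-141451585) had 560, 533 and 334 TPM. Rplp0 had 1607, 1367 and 868 TPM. The lowest Rplp1 library was above the highest Rplp2 library. In counts, which are not scaled by length, the order of these partners was the other way, with 2308, 1220 and 895 counts for Rplp1 and 2617, 1408 and 1100 for Rplp2. The table gives Rplp2 an exon length of 2072 bases and Rplp1 one of 499. Rpl12, the protein at the stalk base, averaged 651 ± 221 TPM (SD, n = 3).

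Rpl5 and Rpl11 enter the large subunit together with the 5S ribosomal RNA and, when free of it, bind and inhibit Mdm2, the ubiquitin ligase of p53. Rpl5 had 388, 455 and 211 TPM, and Rpl11 had 423, 419 and 254 TPM. The values of Rpl11 lay within the range of Rpl5. The 5 members listed as Mdm2-binding, which also include Rpl23, Rpl26 and Rps7, had a median of 688 TPM.

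In the small subunit Rps24 (chr14:24490681-24496146), which takes part in processing of the ribosomal RNA precursor, was highest with 3852, 3663 and 2302 TPM. Rps15 (chr10:80292453-80294114), a protein of the subunit head, had 3688, 2935 and 2060 TPM. Rps3a1 had 1995, 1764 and 901 TPM. All 3 of these were highest in replicate 1 and lowest in replicate 3. The lowest Rps24 and Rps15 libraries were above the highest library of every other small subunit gene.

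Levels ranged widely within each role in the small subunit. The 4 genes of decoding and the beak had a median of 688 TPM, and spanned Rps23, which reaches the decoding site, at 1066 ± 331 TPM and Rps10 at 292 ± 98.4 TPM (SD, n = 3). The 6 genes of the head and platform had a median of 481 TPM and included Rps28, the lowest detected core gene of the small subunit, with 121, 118 and 85.5 TPM. Of the genes at the mRNA entry, Rps2 averaged 1125 ± 371 TPM and Rps3 averaged 436 ± 157 TPM (SD, n = 3). Rps6, the substrate of the S6 kinases downstream of mTOR, had 382, 469 and 184 TPM. Its highest value was in replicate 2 and its lowest in replicate 3. Other low genes were Rps13 (293, 253 and 151 TPM) and Rps15a (207, 188 and 87.3 TPM), each lowest in replicate 3. The 19 members known as human Diamond-Blackfan anaemia genes were all detected, from 108 TPM for Rps28 to 3272 TPM for Rps24, with a median of 366 TPM.

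The lowest detected large subunit genes were a pair that every ribosome carries. Rpl13a (chr7:45125558-45128761), known also for a role in the interferon-gamma response of human monocytic cells, had 37.3, 18.2 and 17.9 TPM. Rpl24 (chr16:55966275-55971435), part of a bridge between the subunits, had 43.9, 24.4 and 18.9 TPM. Each gene was highest in replicate 1. Both share exon bases with another gene of the same strand, which featureCounts without an option for multiple overlaps leaves uncounted. Rpl13a shares 621 bases with Gm45713 and Rpl24 shares 484 with Gm28037, and both partner genes had 0 counts in each library. Rpl24 also shares 51.8% of its runs of 50 bases with transcripts of other genes. The part of shared bases in these levels was not tested.

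Overlap of this kind was common among members but mostly short. Exon bases shared with another gene of the same strand were found in 25 of 85 members (29.4%), against 6.9% of all protein-coding genes. Apart from Rpl13a and Rpl24, each partner gene shared at most 145 bases and most were small nucleolar RNAs. These guide the modification of ribosomal RNA and lie inside ribosomal protein genes, in introns or, as in these pairs, in bases annotated as exon. All 140 bases of Snora7a lie in exon bases of Rpl32, and it had 0 counts in each library. In all, 29 members held 55 annotated small nucleolar RNA genes inside their bodies, which together had 160 counts over all libraries. Reads in bases shared with a member's exons are left out of that sum.

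On the length-scaled measure large subunit genes stood below small subunit genes in median and mean log level, but not in the upper part of the range. The median of mean levels was 466 TPM for the 52 large subunit genes and 664 TPM for the 32 small subunit genes. The 75th percentiles were 938 and 919 TPM and the 90th percentiles 2101 and 1154 TPM, with the large subunit higher. The difference of mean log2(TPM + 1), large minus small, was -0.56, -0.53 and -0.45 in replicates 1, 2 and 3, on average -0.51 ± 0.06 (SD, n = 3). It was below 0 in 3 of 3 libraries, and an exact two-sided sign-flip permutation test gave p = 0.25, the smallest value this test can give with 3 libraries. Part of it lay in genes that were not detected, 3 of 52 in the large and 1 of 32 in the small subunit. Without the 8 listed paralogues, over 46 large and 30 small subunit genes, the difference was -0.22, and over detected members alone it was -0.29. Summed over members, large subunit genes held 4.73%, 4.16% and 2.75% of TPM and small subunit genes 3.15%, 2.70% and 1.70%.

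Paralogues replace a ribosomal protein in some tissues or at some stages, and in each of the 8 pairs among the members the paralogue was below its parent in all 3 libraries. The exact two-sided sign-flip permutation test gave p = 0.25 for each pair, and 0.25 after Benjamini-Hochberg adjustment over the 8 pairs. The pairs fell into 4 whose paralogue was detected and 4 whose paralogue had 9 counts or fewer in all libraries together. Of 11 pairs listed, 3 had a paralogue that is not among the members (Rps4l, Rps3a2 and Rps3a3).

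Rpl22l1, a paralogue of the large subunit gene Rpl22, has a part in T cell development in mice. It had 113, 163 and 43.0 TPM, against 282, 242 and 141 TPM for Rpl22. The log2 ratio of TPM + 1, paralogue over parent, was -1.32, -0.57 and -1.69, on average -1.19 ± 0.57 (SD, n = 3). The ratio varied more between libraries than in the other detected pairs, and was highest in replicate 2. Without replicate 2 it averaged -1.50. An antisense gene overlaps Rpl22l1 and is described with the opposite strand genes.

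Rpl36al, a copy without introns that serves alongside the X-linked Rpl36a, had 188, 172 and 82.3 TPM, against 428, 379 and 234 TPM for Rpl36a. Its log2 ratio was -1.28 ± 0.20 (SD, n = 3). Rps27l, known in human and mouse cells as a p53 target, had 207, 166 and 80.2 TPM, against 526, 565 and 317 TPM for Rps27. Its log2 ratio was -1.69 ± 0.32 (SD, n = 3). In both pairs every paralogue value was under every parent value. Rpl7l1, which is linked to ribosome assembly rather than to finished ribosomes, had 170, 145 and 67.8 TPM, against 1295, 922 and 544 TPM for Rpl7. Its log2 ratio of -2.86 ± 0.17 (SD, n = 3) was the least variable of the 8.

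Of the other paralogues, Rpl10l and Rpl39l are known chiefly from testis, and Rpl3l from heart and skeletal muscle. Rpl10l, a retrogene that stands in for X-linked Rpl10 in male meiosis, had 0 counts in every library, against 5033 counts for Rpl10 in all. Taking 3 counts over the group as the limit that 0 counts allow, it was at least 836-fold lower per length. Rpl3l had 0, 0 and 1 counts, against 4919, 2174 and 1580 for Rpl3. The ratio per length was 0.000219, with an exact 95% interval from 5.54e-06 to 0.00122 that covers counting error only. Rpl39l had 6, 0 and 3 counts, against 1024, 763 and 298 for Rpl39, a ratio of 0.00745 (0.00340 to 0.0142). None of these 3 genes shares a run of 50 bases with its parent in the annotated transcripts.

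**Figure D2:**
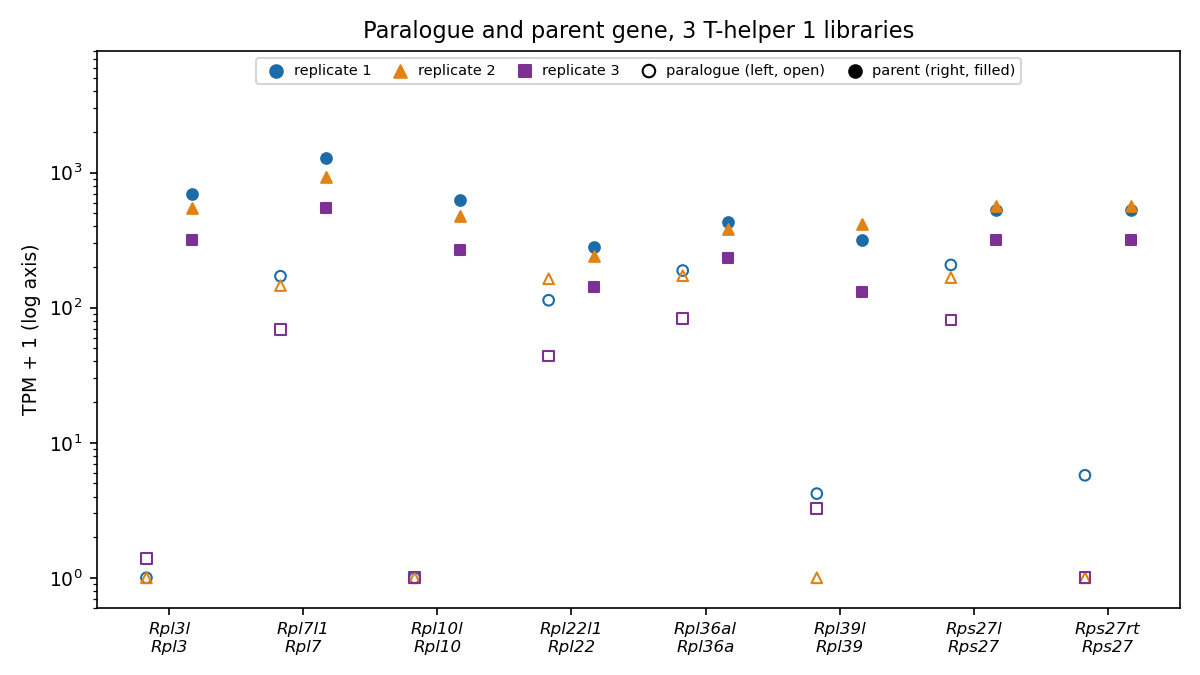
Level of each paralogue (open, left) and its parent gene (filled, right) as TPM + 1 on a log axis, 1 point per library. Rpl22l1, Rpl36al, Rps27l and Rpl7l1 lie below their parents by less than a factor of 10, while Rpl3l, Rpl10l, Rpl39l and Rps27rt lie near the bottom of the axis.

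Rps27rt (chr9:114982366-114982739) is a copy of Rps27 without introns inside the body of Osbpl10. It had 4, 0 and 0 counts, against 1237, 752 and 525 for Rps27, a ratio per length of 0.00444 (exact 95% interval 0.00121 to 0.0114, counting error only). Of its 325 runs of 50 bases, 296 (91.1%) also occur in Rps27, so reads of the pair can be hard to assign and its count is uncertain. The copy and its parent are shown because the likeness begins at the start of the transcript. The windows are 30 bases around the annotated start site on the transcribed strand, from the RefSeq promoter table for GRCm38.p6, with the pentamer CTTTC in capitals:
Rps27rt, chr9:114982725-114982754, minus strand: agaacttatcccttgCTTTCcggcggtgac
Rps27, chr3:90213634-90213663, minus strand: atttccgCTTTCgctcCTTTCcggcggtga
From the second CTTTC of Rps27 on, 38 bases were identical in an unbroken run, while 53 of the 250 bases before it (21.2%) were identical at the same positions.

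The pentamer CTTTC is a simple stand-in for a pyrimidine tract. It was searched within 15 bases on either side of the RefSeq start site. Of 65 members found in the promoter table, 18 (27.7%) had it on the transcribed strand and 20 (30.8%) on either strand. The same window held it in 3 of 69 mitochondrial ribosomal protein genes (4.35%) and in 1286 of 27025 genes of the table (4.76%) on the transcribed strand, and in 8.83% of all genes on either strand. A match describes letters and not a tract in use, and no match says only that these letters are not in this window. No other motif was searched. Shown are 5 members in which the pentamer starts at base 1 to 4 of the transcript, so that the pyrimidines at that site can be seen:
Rpl38, chr11:114668565-114668594, plus strand: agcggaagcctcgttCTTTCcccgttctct
Rplp2, chr7:141447636-141447665, plus strand: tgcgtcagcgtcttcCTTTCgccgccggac
Rpl28, chr7:4792950-4792979, plus strand: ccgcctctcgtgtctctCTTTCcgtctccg
Rpl35a, chr16:33056467-33056496, plus strand: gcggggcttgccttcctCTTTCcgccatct
Rpl18, chr7:45718056-45718085, plus strand: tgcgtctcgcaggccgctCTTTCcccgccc
Their mean levels ran from 140 TPM for Rpl35a to 758 TPM for Rpl38, and all 5 were detected. The barely expressed Rps27rt and Rpl39l also held the pentamer.

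Ribosomal protein genes had opposite-strand genes about as often as other protein-coding genes. An exon inside a gene body of the other strand was found in 21 of 85 members (24.7%), against 27.1% of all protein-coding genes, and exon bases shared with an opposite exon in 17 of 85, against 22.1%. The medians of mean level were 459 TPM for the 21 members with an opposite gene and 519 TPM for the 64 clear members without one. The difference of mean log2(TPM + 1), opposite minus clear, was -0.17, -0.31 and -0.34 in replicates 1, 2 and 3, on average -0.27 ± 0.09 (SD, n = 3; exact two-sided sign-flip permutation p = 0.25, the smallest possible). Its direction depended on the definition. It was 0.46 for members whose exons overlap opposite exons against all others, 0.071 in CPM, which is counts scaled to the library total and not to length, and -0.03 per coding length.

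The 17 members with shared exon bases formed 19 pairs with opposite genes, of which 17 had enough counts for a ratio. The member had more counts per kilobase in every library in 12 of these pairs and the opposite gene in 4, while 1 was mixed. The ratio of member to opposite gene was lowest in replicate 3 in 11 of 17 pairs. Whether strand setting 1 of the counting matches the strand that the library kit keeps is not given in the sources used here. Counts of a member and of the gene opposite to it therefore cannot be assigned to the one or the other RNA with certainty. Levels of clear members rest on the same setting, and its match to the kit was not tested.

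The 8 members with the longest overlap showed both patterns. Rpl5, with 953 bases shared with Fam69a, had 3429, 2276 and 1318 counts, against 920, 665 and 725 for Fam69a. The log2 ratio per kilobase was 1.07 ± 0.57 (SD, n = 3), above 0 in every library. Rpl35, a protein at the rim of the exit tunnel, had 1513, 552 and 601 counts, against 12313, 7048 and 10709 for Wdr38, which shares 821 bases with it. That log2 ratio was -2.41 ± 0.57 (SD, n = 3), below 0 in every library. Over Arpc5l, which shares 62 bases with Rpl35, it was 3.97 ± 0.68 (SD, n = 3). Rpl23a, also at the tunnel exit, had 5367, 2195 and 2148 counts, against 26022, 16228 and 21651 for Tlcd1. Per kilobase the log2 ratio was 0.29, -0.32 and -0.77, the pair in which libraries differed in direction.

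Rps25, Rpl31, Rpl18, Rpl28 and Rps27a were above their opposite genes throughout. Rps25, known for its need in initiation at viral internal entry sites, had 6292, 3277 and 3279 counts, against 196, 168 and 87 for Trappc4 and 1341, 1372 and 722 for Ccdc84 on its other side. The log2 ratios per kilobase were 4.70 ± 0.50 and 2.52 ± 0.55 (SD, n = 3). The others averaged 2.67 for Rpl31 over Tbc1d8, 3.40 for Rpl18 over Sphk2, 3.32 for Rpl28 over Ube2s and 6.05 for Rps27a over Clhc1. Rps27a is made as a fusion with ubiquitin.

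Rpl22l1 had 505, 413 and 136 counts, against 3764, 3922 and 2311 for the antisense gene Gm33051, which spans only 274 bases of exon. The log2 ratio per kilobase of -6.27 ± 0.61 (SD, n = 3) was the lowest of the 17 pairs. Another pair with a higher opposite gene, chosen after its values were seen, was Rpl15 with Nkiras1 at -1.50 ± 0.72 (SD, n = 3).

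**Figure D3:**
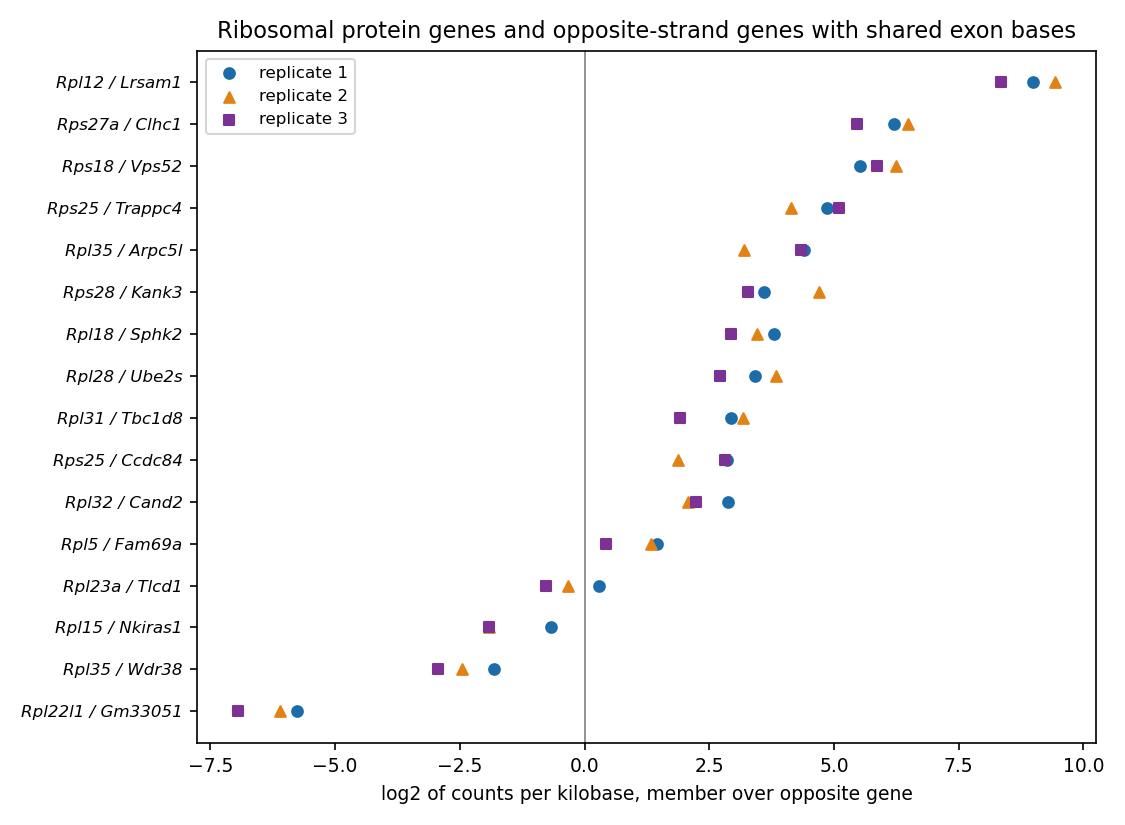
Log2 ratio of counts per kilobase, ribosomal protein gene over the opposite-strand gene with shared exon bases, for 16 of the pairs with 1 point per library. In 3 pairs all points are below 0, in 12 all are above 0, and Rpl23a with Tlcd1 has points on both sides.

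The members took a different share of each library. They held 7.88%, 6.86% and 4.46% of TPM in replicates 1, 2 and 3, on average 6.40% ± 1.76 (SD, n = 3), and 5.52%, 5.02% and 3.63% of counts. In TPM replicate 3 had the lowest value for 80 of 85 members, against 6709 of 9932 protein-coding genes with a mean of at least 1 TPM. In CPM after TMM scaling it was lowest for 57 of 85 members and 4405 of the 9932 genes. In bulk RNA, fewer cells of a type and less RNA per cell cannot be told apart. Members deviated from their own mean log2(TPM + 1) by a median of 0.38 in replicate 1, 0.14 in replicate 2 and -0.52 in replicate 3. Over the 9932 protein-coding genes it was 0.32, 0.11 and -0.41, so the shift was not limited to members. When TPM was computed over genes with no opposite-strand gene alone, clear members held 19.8%, 19.3% and 19.6%, on average 19.6% ± 0.228 (SD, n = 3), and their median deviation was 0.04, -0.02 and -0.04. On that scale replicate 3 was lowest for 29 of 64 clear members. The same held for 2556 of 6228 clear protein-coding genes with a mean of at least 1 TPM. The median deviation of those genes was 0.10, -0.02 and -0.05 in replicates 1, 2 and 3.

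**Figure D4:**
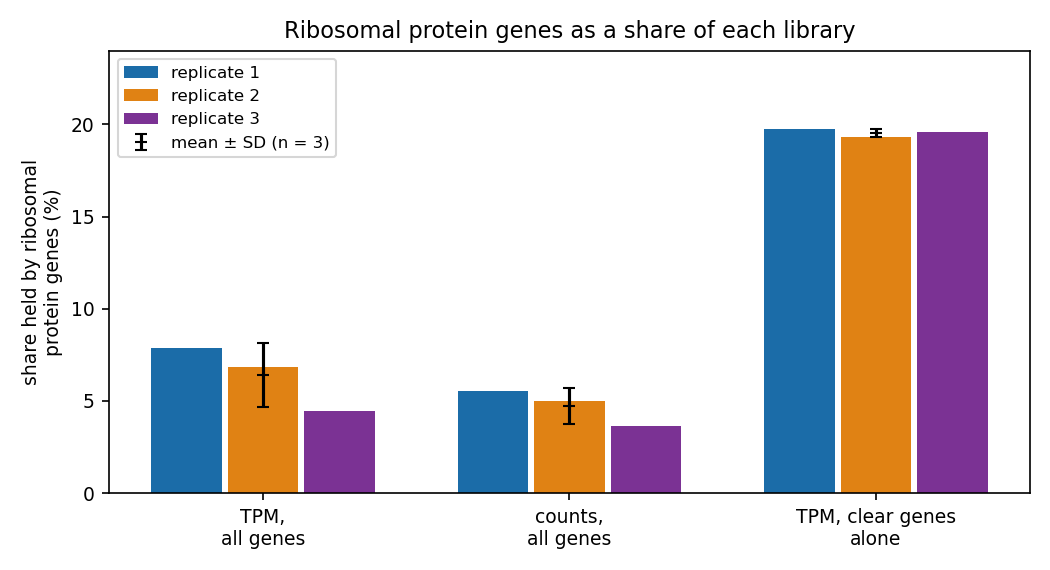
Share of each library held by ribosomal protein genes, as a share of TPM, of counts and, for clear members, of TPM over clear genes alone, with 1 bar per library and the mean ± SD (n = 3) in black. Replicate 3 is lowest on the scales over all genes, at 4.46% and 3.63%, while over clear genes the 3 libraries lie between 19.3% and 19.8%.

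Members varied between libraries about as much as other genes in TPM. The median SD of log2(TPM + 1) was 0.49 over members and 0.52 over the 9932 protein-coding genes, and in CPM after TMM scaling it was 0.19 and 0.39. Without replicate 3 the TPM values were 0.16 and 0.29, whereas without replicate 2 they were 0.63 and 0.54, with members the more variable. The median biological coefficient of variation from edgeR was 0.297 over 81 members and 0.308 over all 9466 genes fitted. Without replicate 3 these were 0.180 and 0.280, and without replicate 2 they were 0.362 and 0.307. The edgeR values are drawn toward a trend shared by all genes, and those of members lay between 0.2805 and 0.3516 with all libraries. Their closeness to other genes therefore cannot show that both vary alike. Gene-wise dispersion from DESeq2, without that step, gave medians of 0.109 over members and 0.237 over all genes. Levels of members were closely correlated between libraries. Pearson's r of log2(TPM + 1) over 85 genes was 0.985, 0.987 and 0.981 for replicates 1 and 2, 1 and 3, and 2 and 3. Over 76 members, without paralogues and Rps19bp1, it was 0.982, 0.986 and 0.976. These are correlations across genes, which share each library and are not independent replicates.

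Some members varied more between libraries than others. Besides Rps27rt and Rpl39l with their few counts, the largest SDs were those of Rpl22l1 (0.98), Rps19bp1 (0.97) and Rpl39 (0.87). Rps19bp1, a regulator of the deacetylase SIRT1 in human cells, had 92.4, 24.6 and 65.9 TPM and was lowest in replicate 2, unlike most members. The smallest SDs among detected members were those of Rpl36 (0.16), Rpl27a (0.17), Rps29 (0.21), Rps26 (0.22) and Rps25 (0.23). Rpl27a had 350, 334 and 279 TPM. Rps29, a small zinc-binding protein of the head, had 663, 615 and 499 TPM. Rps26, at the mRNA exit, had 605, 525 and 446 TPM. All 3 were lowest in replicate 3.

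The level of a member was related to the exon length that the table assigns to it. Coding lengths were short, with a median of 453 bases from 138 to 1257, but exon lengths summed over all annotated transcripts ran from 374 to 6270 bases with a median of 1659. The median ratio of exon to coding length was 3.53 and the highest 16.1. Over the 76 core members, without paralogues and Rps19bp1, Pearson's r between log2 exon length and mean log2(TPM + 1) was -0.53 and Spearman's rho was -0.59. The same r was 0.10 with CPM, and 0.11 between coding length and log2(TPM + 1). Length enters the TPM itself, and these correlations describe genes of the same libraries.

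**Figure D5:**
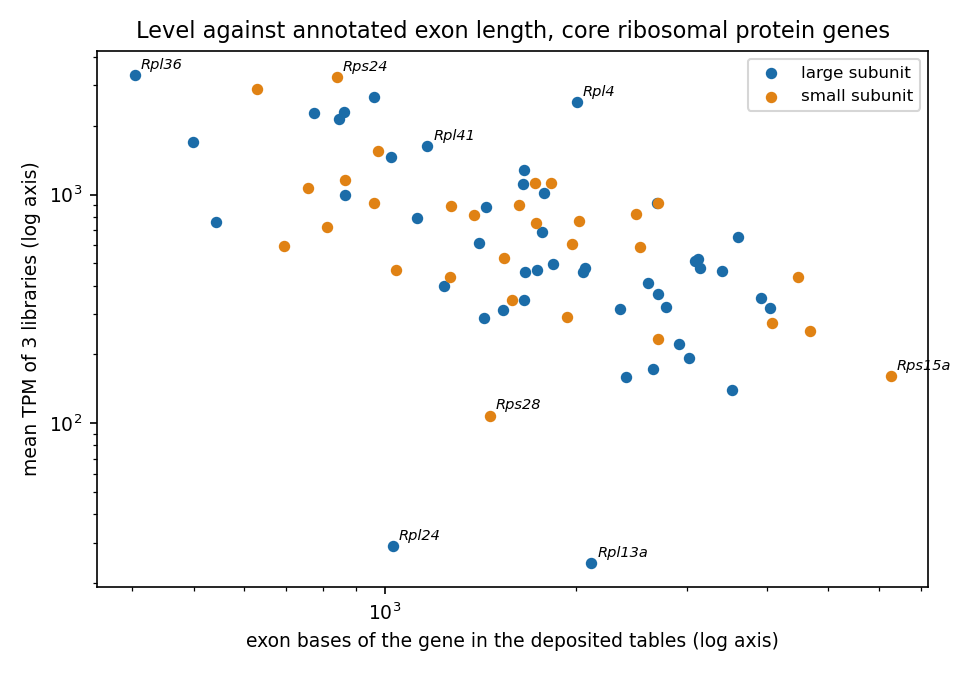
Mean TPM over 3 libraries against exon bases of the gene, both on log axes, for 76 core ribosomal protein genes. Genes with longer annotated exons have lower TPM, with a Spearman's rho of -0.59 across genes.

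Ribosomal protein genes have many processed copies in the genome, and 275 pseudogene rows of the tables were named for them. Of these, 164 had 0 counts in every library. The rows together held 1423, 661 and 696 counts in replicates 1, 2 and 3, equal to 0.541%, 0.513% and 0.681% of the members' counts. The highest, Rpl14-ps1, had 716, 186 and 375 counts and was chosen after its values were seen. The median share of a member's 50-base runs that also occur in annotated transcripts of other genes was 22.7%, and 8 members were above 50%. The header of the tables lists no option to count reads with several matches, so Rpl35 (84.1%), Rpl36 (81.1%), Rpl23a (80.8%) and Rps3a1 (71.0%) may be undercounted to an extent that was not tested.

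Ribosomal proteins whose symbols the rule does not match were detected too. Rpsa, a small subunit protein also known as a laminin receptor precursor, averaged 484 ± 142 TPM, and Fau, made as a fusion with a ubiquitin-like protein, 751 ± 204 TPM (SD, n = 3). Rack1, a signalling scaffold on the small subunit, averaged 385 ± 136 TPM (SD, n = 3). Other genes with a terminal oligopyrimidine tract were at a like level, with 14 of 14 detected and a median of 382 TPM. They include the elongation factor Eef2 at 1089 ± 350 TPM and the translation factor subunit gene Eif3f, the lowest, at 100 ± 29.5 TPM (SD, n = 3).

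The genes that escort ribosomal proteins or govern their supply had far lower medians than the 498 TPM of the members. All 9 chaperones and importers were detected with a median of 41.3 TPM, and only 3 of the 9 were clear of opposite-strand genes. The highest of them, Nap1l1, averaged 260 ± 81.9 TPM (SD, n = 3), above the 10th percentile of detected members at 151 TPM. Bccip, the chaperone of Rpl23 known from yeast and human cells, averaged 129 ± 30.4 TPM and Tsr2, the chaperone of Rps26, 19.1 ± 6.28 TPM (SD, n = 3). All 9 regulators of supply were detected with a median of 17.8 TPM. Myc, a transcription factor that drives ribosome production, averaged 204 ± 46.2 TPM, Larp1, which binds terminal oligopyrimidine mRNAs, 122 ± 33.8 TPM, and Mtor 9.13 ± 3.47 TPM (SD, n = 3).

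The 78 genes of the mitochondrial ribosome, named Mrpl and Mrps, were taken as another set of ribosomal protein genes. Cytosolic members had a median of mean level of 498 TPM and mitochondrial ones 32.6 TPM. The difference of mean log2(TPM + 1), cytosolic minus mitochondrial, was 3.64, 3.62 and 3.53 in replicates 1, 2 and 3, on average 3.60 ± 0.06 (SD, n = 3; exact two-sided sign-flip permutation p = 0.25, the smallest possible). Detected were 81 of 85 cytosolic and 77 of 78 mitochondrial genes. Mitochondrial genes held 0.452%, 0.410% and 0.301% of TPM in replicates 1, 2 and 3, again lowest in replicate 3.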

How the data were processed

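The deposited values are whole-number counts of read pairs per gene, made by the authors with featureCounts v1.4.6-p4, per the file headers, over exons of GENCODE vM13 on mm10, with strand setting 1. For the aligner's version and the library kit nothing is given in the sources used here. The deposited exon length stands beside each count. From the deposited counts and lengths TPM, CPM and log2(TPM + 1) were calculated, and no low-value filter was applied to members. Symbols and types came from GENCODE vM21 for 50376 of 50600 genes. The members, lists and tests were chosen with earlier results of these data known. Named genes are the 4 highest and 4 lowest detected members of each subunit, those not detected, paralogue pairs, stalk genes, the 8 longest opposite overlaps, the 5 largest and 5 smallest SDs and the role lists; Rpl13a and Rpl24's overlap, the members whose start windows are shown and genes said to be chosen later were read after their values were seen. Some results of the named genes are not reported here.

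With 1 group there was no contrast. Differences between gene sets were taken within each library and tested over 3 libraries with exact sign-flip permutation tests. The smallest p is then 0.25. It is reached whenever the differences of all 3 libraries have the same sign, whatever their size or spread. The spread between genes does not enter the test. Dispersion was fitted with edgeR 4.0.16 (TMM, filterByExpr, intercept alone) and, as an alternative, DESeq2 1.42.0, both on R 4.3.3. On simulated data the dispersion estimates and test functions were checked. Other steps ran on SciPy 1.17.1, pandas 2.3.3, numpy 2.4.6, matplotlib 3.10.9 and Python 3.11.15. Of 85 members 65 were found in the RefSeq promoter table. Ratio intervals are exact at 95%, the limit for 0 counts was set at 3, and both cover counting error only. The alternatives changed the pseudocount, unit, filter, scaling or member set, or left out a replicate. Per coding length, same-strand overlap, Rps19bp1 placement and the counts of opposite pairs were added after the data were seen.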

Additional observations from a re-analysis of the deposited data

How the results depend on the processing

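The difference of large minus small subunit genes kept its sign under every alternative run, from -0.85 over clear members to -0.22 without paralogues, and from -0.54 to -0.49 with each replicate left out. The difference of opposite minus clear members reversed to 0.071 in CPM and to 0.46 when exon overlap defined the group; without members that share same-strand exon bases it was -1.06, and from -0.32 to -0.24 with each replicate left out. The cause was not tested. Cytosolic minus mitochondrial genes stayed between 3.18 and 3.94. All 8 paralogue pairs stayed below 0 in every library, 81 to 82 members were detected, and 4 to 5 opposite genes were above their member. Clear members held 19.6% of TPM computed over clear genes alone, against 6.40% for all members over all genes. The 2 shares differ in both their members and their total, and the reason for the difference was not tested. The share of all members over all genes ranged from 5.66% to 7.37% with each replicate left out. With gene-wise dispersion from DESeq2 the median coefficient of variation was 0.109 over members and 0.237 over all 9466 genes, so there members were the less variable. The edgeR value of members ranged from 0.180 to 0.362 with each replicate left out. The median SD was 0.19 after TMM scaling and ranged from 0.16 to 0.63 with each replicate left out, lowest without replicate 3. No paired analysis was possible because there was 1 group. Depth limits the paralogues of few counts, and with 3 libraries the sign-flip permutation test could not go below 0.25.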
